A study of Homo sapiens with 2 samples.

Results

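The genes described here are 49 genes of neurons, synapses and neuroendocrine cells. They were listed by name, with earlier results of these data known, and all 49 were found among the 23352 genes of both tables. They were followed in A673, an established human Ewing sarcoma line that carries the EWSR1-FLI1 fusion, after a hairpin against the Runt-domain transcription factor RUNX3. One group carried the RUNX3 hairpin named 813 and the other a non-target hairpin (NT). Lentivirus made in HEK 293T cells was harvested at 72 hours and given with 6 µg/mL polybrene, and both groups then spent 6 days in 0.4 µg/mL puromycin, so that both carried vector and selection. The titles call each library a pool without saying what was pooled, and poly(A) RNA of 1 library per group was sequenced. No difference therefore has a replicate check, none was tested, and the comparison is of 2 libraries. The shRNA characteristic of each library contradicts its title, and taking the characteristic turns every direction below round. The libraries are named here by their titles, the 813 library and the NT library.

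Neurons release transmitter from small synaptic vesicles, which dock and fuse through SNARE proteins under the control of calcium sensors and complexins, while neuroendocrine cells also store peptides with granins in dense-core granules. Growing axons depend on microtubule-binding proteins and neurofilaments, and synapses are held by adhesion molecules such as the neurexins and neuroligins. Ewing sarcoma cells are small round cells that can carry some of these neural proteins, and pathologists have long stained such tumours for them. In cells outside the nervous system many neuronal genes are held silent by the repressor REST and its corepressor RCOR1.

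The 813 library held 23342660 counted read pairs and the NT library 24326135, so that a count of 0 allows up to 0.123 and 0.129 CPM (3 pairs, with CPM the usual depth-scaled count, here on TMM-scaled depths). RUNX3 had 387 pairs in the 813 library and 1391 in the NT library, a log2 fold of -1.92 (-2.09 to -1.76), which goes with the titles. All 15 of the Ewing sarcoma markers listed were measured, with CD99 at 4026 and 3808 CPM. By the calling rule given below, 2 of them (13.3%) were lower in the 813 library, NKX2-2 (log2 fold -1.43) and NR0B1 (log2 fold -1.11), and 0 were higher. Over all measured genes 8.13% were higher and 3.48% lower. Of 16 glial and Schwann cell markers 4 were measured, 1 of them higher and 1 lower, with 3 of 4 above 0 and a median log2 fold of 0.33. The list summed to 67.4 CPM in the 813 library and 122 CPM in the NT library, of which ALDH1L1, the lower gene, supplied 52.0 and 112 CPM, and its part in the differences below was not tested. Among the markers of this glial list that were not measured, AQP4, MAG and OLIG1 were at 0 pairs in both libraries, and GFAP had 4 and 2 pairs. These low counts do not speak for the 4 measured markers. Of 17 fibroblast, epithelial, leukocyte and endothelial markers 9 were measured and 0 were called, where 11.6% of all measured genes were called. The list summed to 3868 and 3245 CPM, mostly from COL1A2. The leukocyte genes PTPRC and CD3E and the epithelial genes EPCAM and CDH1 had at most 1 pair. The 9 measured markers were not all fibroblast genes, so these low counts do not show that markers of the other cell types were absent. In bulk RNA, fewer cells that express a gene and less RNA per cell cannot be told apart.

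Of the 49 genes, 37 were measured, meaning 1 CPM or more in at least 1 library. A gene was called higher or lower in the 813 library at a 2-fold difference or more with its 95% interval (exact binomial, counting error only) wholly beyond 1.5-fold. By this rule 8 of the 37 measured genes were higher, 21.6%, where 8.13% of all 12254 measured genes were higher. Another 8 were lower, also 21.6%, where 3.48% of all measured genes were lower. Together 16 of 37, or 43.2%, were called, against 11.6% of all measured genes, and 21 were not called. The calls went both ways, and the median log2 fold was -0.11 beside 0.01 for all measured genes, turning to 0.03 and 0.15 when libraries were scaled by plain total counts. The genes that were higher were GAP43, NCAM1, NRXN2, NES, SYN2, CHGA, SYT11 and SCG2, and those that were lower were CUX2, CPLX1, MAPT, DPYSL4, ELAVL3, DPYSL3, SYP and SYN1. CHGA and SYN2 reached 1 CPM only in the 813 library, so they could enter only as higher genes.

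**Figure D1:**
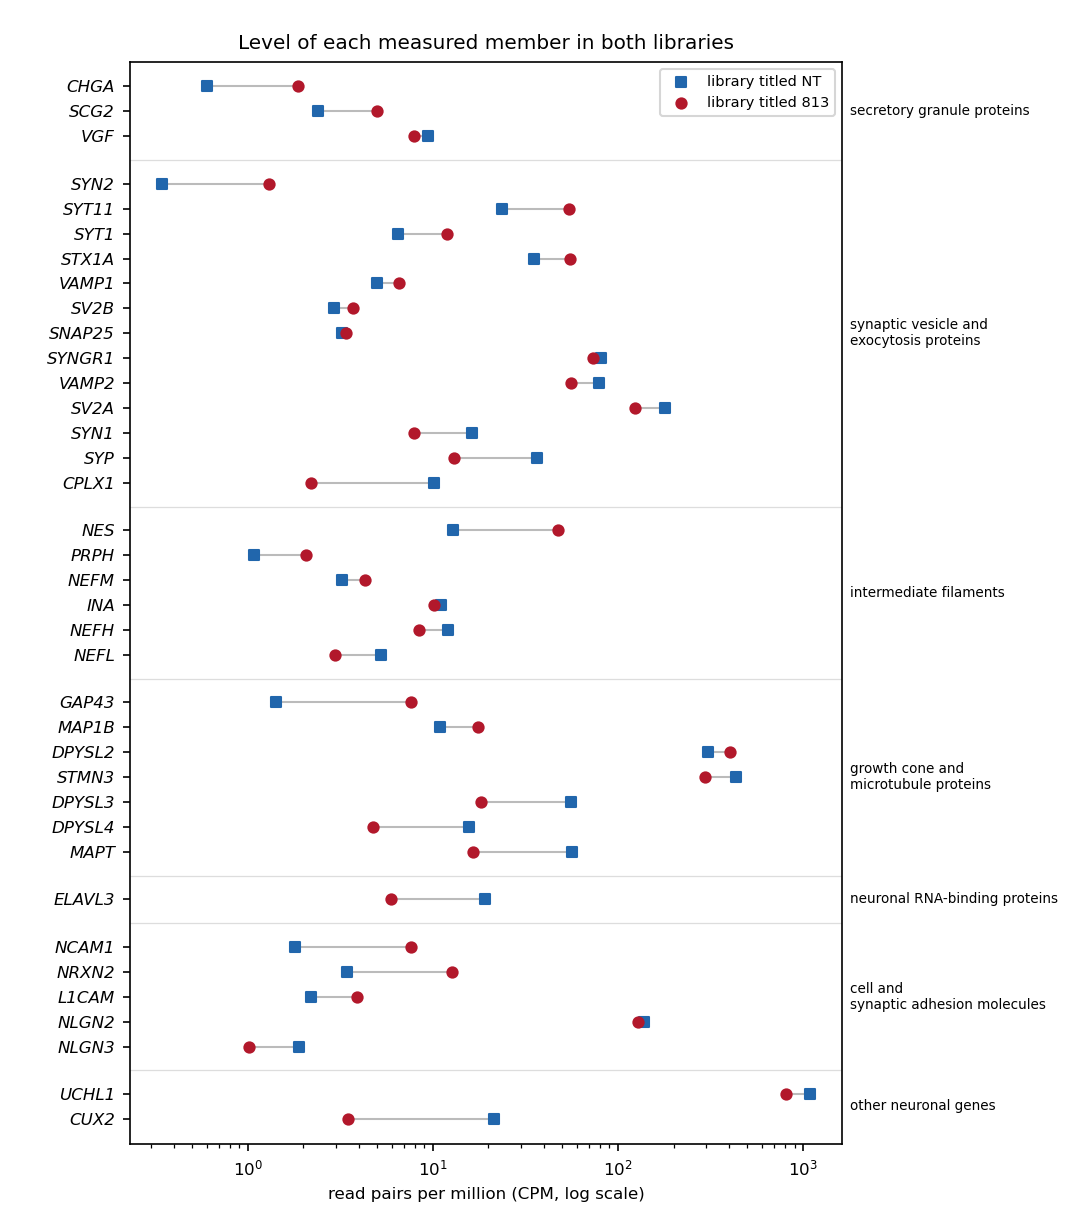
Level of each of the 37 measured genes in both libraries, in CPM on a log axis, with the genes grouped by role (blue square, NT library; red circle, 813 library; 1 library each, so there are no error bars). Long connecting lines in both directions occur within the vesicle and the growth cone groups, while the abundant UCHL1, STMN3, DPYSL2 and NLGN2 have short ones.

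The 12 genes that were not measured had at most 9 pairs in the 813 library and 4 in the NT library. ELAVL4, an RNA-binding protein of neurons, and STMN2, a stathmin of growing axons, had 0 pairs in both. The microtubule-binding proteins DCX and MAP2, which mark young neurons and dendrites, had 9 and 2 pairs in the 813 library and 4 and 0 in the NT library. The remaining unmeasured genes were the granule proteins CHGB, SCG3 and SCG5, the vesicle proteins SYT4 and CPLX2, the stathmin STMN4, the RNA-binding protein ELAVL2 and the neuroligin NLGN1. No difference in any of the 12 was detectable at this depth.

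Levels per length spanned a wide range. UCHL1, a ubiquitin hydrolase abundant in neurons, stood first at 580 RPKM (the authors' count per length and depth) in the 813 library and 713 RPKM in the NT library, and supplied 36.2% and 40.4% of all pairs assigned to the 49 genes. STMN3 followed at 106 and 142 RPKM and DPYSL2 at 61.8 and 43.3 RPKM. A level of 10 RPKM in both libraries was reached by 8 genes (UCHL1, STMN3, DPYSL2, SV2A, VAMP2, NLGN2, STX1A and SYNGR1), and 0 of these 8 were called, where 2.76% of all 4132 genes at that level were called. The called genes lay below, at up to 8.27 RPKM in the 813 library (SYT11) and 11.0 RPKM in the NT library (SYP).

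**Figure D2:**
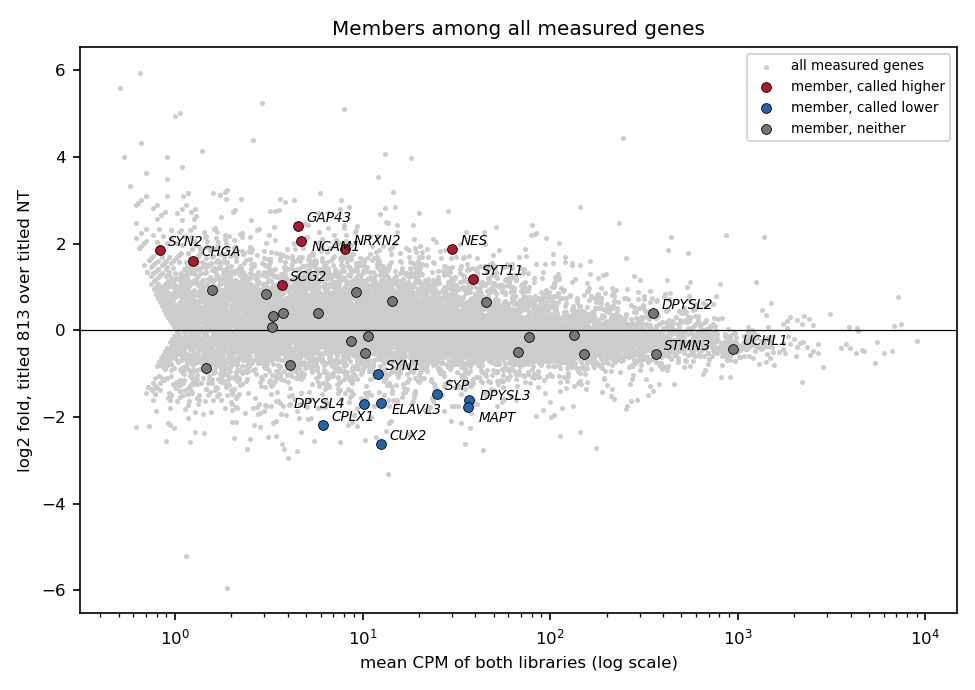
Log2 fold (813 library over NT library) against the mean CPM of both libraries on a log axis for all 12254 measured genes (grey dots) and the 37 measured neuronal genes (red, called higher; blue, called lower; dark grey, neither). The called genes lie on both sides of 0 in the left and middle of the plot, and the abundant UCHL1 (-0.43), STMN3 (-0.55) and DPYSL2 (0.39) lie nearer to 0 at the right.

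Secretory granule proteins came first by role. Of the 6 listed, 3 were measured, 2 were higher (66.7%), 0 were lower, and their median log2 fold was 1.05. Of the 2 higher genes, CHGA reached 1 CPM only in the 813 library. The filter thus set its direction, and the share rests partly on it. Percentages here and in the groups and lists below stand beside 8.13% higher and 3.48% lower over all measured genes. CHGA (chr14:93389445-93401638 in hg19, as are all gene positions here), the acidic granin used as a neuroendocrine marker, had 46 pairs in the 813 library and 14 in the NT library, or 1.88 and 0.603 CPM. Its log2 fold was 1.61 (0.75 to 2.62), a wide interval set by few counts. SCG2 (chr2:224461658-224467217), the granin from which the peptide secretoneurin is cut, had 123 against 56 pairs (5.03 and 2.41 CPM), giving a log2 fold of 1.05 (0.59 to 1.54) that lay just inside the rule. The call of SCG2 ended with DESeq2 size factors (1.04) and with a smooth trend of the log2 fold on transcript GC content and length removed (0.72), an alternative called the trend removed from here on. VGF, a neuropeptide precursor induced by nerve growth factor, had 195 against 218 pairs and a log2 fold of -0.24 (-0.52 to 0.05), an interval that includes no difference, and was at 0.18 with the trend removed.

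Synaptic vesicle and exocytosis proteins formed the largest group. Of 15 listed, 13 were measured, 2 were higher (15.4%) and 3 were lower (23.1%). Of the 2 higher genes, SYN2 reached 1 CPM only in the 813 library, so the filter set its direction. Their median log2 fold of 0.07 was positive but close to the 0.01 of all measured genes. The 5 called genes were 4 vesicle membrane or vesicle-associated proteins and 1 regulator of SNARE assembly. Promoter sequences from RefSeq (GRCh38.p14) are shown for the 4 called vesicle genes that have a motif match among those searched, each as the 250 bases before the start site, with the matched letters in capitals. CPLX1, the other called vesicle gene, was not found in the RefSeq promoters, so it was not searched. SYN1 (chrX:47619858-47620107, minus strand) has a REST-type core, SYP (chrX:49200194-49200443, minus strand) and SYT11 (chr1:155859317-155859566, plus strand) have the RUNX core, and SYN2 (chr3:12004138-12004387, plus strand) has a tandem ETS core.
SYN1: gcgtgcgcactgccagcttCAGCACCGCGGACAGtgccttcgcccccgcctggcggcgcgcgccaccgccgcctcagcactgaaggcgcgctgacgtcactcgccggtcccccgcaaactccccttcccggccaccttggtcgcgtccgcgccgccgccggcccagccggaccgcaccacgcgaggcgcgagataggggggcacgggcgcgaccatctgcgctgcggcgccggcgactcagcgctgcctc
SYP: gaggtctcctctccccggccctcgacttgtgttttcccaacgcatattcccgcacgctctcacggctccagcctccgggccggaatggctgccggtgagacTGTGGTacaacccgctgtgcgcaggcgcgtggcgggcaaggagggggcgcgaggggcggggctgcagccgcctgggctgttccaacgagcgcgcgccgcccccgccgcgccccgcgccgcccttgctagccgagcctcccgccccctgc
SYT11: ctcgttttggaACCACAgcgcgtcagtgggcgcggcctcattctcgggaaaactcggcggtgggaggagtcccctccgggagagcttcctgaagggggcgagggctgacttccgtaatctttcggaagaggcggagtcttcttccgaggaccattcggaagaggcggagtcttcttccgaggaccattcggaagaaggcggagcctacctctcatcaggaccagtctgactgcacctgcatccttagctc
SYN2: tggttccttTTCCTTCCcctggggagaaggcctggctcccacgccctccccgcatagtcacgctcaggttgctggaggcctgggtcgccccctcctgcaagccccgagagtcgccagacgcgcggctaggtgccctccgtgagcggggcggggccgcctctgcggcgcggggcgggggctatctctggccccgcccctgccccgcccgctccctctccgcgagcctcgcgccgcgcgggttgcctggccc

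The motif of SYN1 runs from 231 to 217 bases before the start, that of SYP from 149 to 144, that of SYT11 from 239 to 234 and that of SYN2 from 241 to 234. Motifs were searched on both strands in 300 bases per promoter (250 before the start and 50 after), over 60 promoters of the 35 genes found in the RefSeq table. The RUNX core TGTGGT was in 5 of 60 (8.33%), against 13.1% of all 35116 promoters. GGAA repeated at least 2 times in tandem was in 3 of 60, against 3.67% of all promoters. CAGCACC followed 2 to 4 bases later by GGACAG, the core of the REST element, was in 1 of 60 (1.67%), against 0.0683%. The 4 promoters shown hold 3 of these motifs between them, and the genes with a RUNX core went both ways, SYP lower and SYT11 higher, with NLGN2 not called and ELAVL2 and ELAVL4 not measured. These matches are letters in a window and do not show that a factor binds there.

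The synapsins coat vesicles and tether them to the cytoskeleton, and the 2 measured synapsins of this group lay on opposite sides. SYN1 (chrX:47431300-47479256) had 195 pairs in the 813 library and 375 in the NT library (7.97 and 16.2 CPM), a log2 fold of -1.02 (-1.28 to -0.77). SYN2 (chr3:12045862-12233532) had 32 against 8 pairs (1.31 and 0.345 CPM), giving a log2 fold of 1.86 (0.78 to 3.25). Because SYN2 passed the filter only through the 813 library, its side was fixed in advance. The call of SYN1 was at the edge of the rule and ended with plain total counts (-0.88), with totals without the 20 most abundant genes (-0.89), with the authors' RPKM (-0.89) and with the trend removed (-0.70). TIMP4 lies inside SYN2 with 570 pairs in the 813 library and 97 in the NT library, and shares no exon base with it. TIMP1 lies inside SYN1 with 12092 and 15643 pairs and shares no exon base, while ARAF (2436 and 3175 pairs) shares 21 bases with SYN1. The part of these genes in the SYN2 and SYN1 counts was not tested. The paralog SYN3 had 41 against 43 pairs and a log2 fold of -0.14.

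SYP (chrX:49044265-49056661), the vesicle membrane protein synaptophysin used to stain neuroendocrine tumours, had 321 pairs in the 813 library and 848 in the NT library, or 13.1 and 36.5 CPM. Its log2 fold was -1.48 (-1.67 to -1.29), a level 2.78-fold higher in the NT library. SYPL1, its widely expressed paralog, had a log2 fold of 0.14 (0.01 to 0.28). CPLX1 (chr4:778745-819945), the complexin that holds assembled SNAREs until calcium arrives, had 54 and 234 pairs (2.21 and 10.1 CPM). Its log2 fold of -2.18 (-2.65 to -1.76) was the lowest of the vesicle group.

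The synaptotagmins are calcium sensors of fusion, apart from members such as SYT11 that do not bind calcium. SYT11 (chr1:155829260-155854990) had 1328 against 551 pairs (54.3 and 23.7 CPM), giving a log2 fold of 1.19 (1.05 to 1.34) that was 0.80 and not called with the trend removed. SYT1, the sensor of fast transmitter release, had 293 pairs in the 813 library and 150 in the NT library. Its log2 fold of 0.89 (0.60 to 1.18) lay just outside the rule, and SYT1 was called at 1.02 with plain total counts, with totals without the 20 most abundant genes and with the authors' RPKM.

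The 3 kinds of SNARE that drive fusion were measured and not called. STX1A, the plasma membrane syntaxin, was at 55.4 and 35.3 CPM with a log2 fold of 0.65 (0.52 to 0.78), which became 1.0 and a call with the trend removed. SNAP25, its membrane partner, was at 3.39 and 3.23 CPM with a log2 fold of 0.07 (-0.40 to 0.54). VAMP2, the main vesicle SNARE of the brain, was at 55.9 and 79.2 CPM with a log2 fold of -0.50 (-0.60 to -0.40), while its paralog VAMP1 had 161 and 116 pairs, with a log2 fold of 0.40 (0.04 to 0.75). The 2 vesicle SNAREs had intervals that did not overlap, although VAMP1 shares 85 of its 3138 exon bases with TAPBPL (872 and 490 pairs), whose part in the VAMP1 count was not tested.

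The transporter-like vesicle glycoproteins and synaptogyrin had point estimates under 1.5-fold, although the intervals of SV2A and SV2B reached beyond it. SV2A, the binding site of the drug levetiracetam, was at 124 CPM in the 813 library and 179 CPM in the NT library, with a log2 fold of -0.54 (-0.60 to -0.47). SV2B was at 3.72 and 2.93 CPM with a log2 fold of 0.34 (-0.12 to 0.82). SYNGR1 was at 73.1 and 80.9 CPM with a log2 fold of -0.15 (-0.24 to -0.05).

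Intermediate filament genes were represented by all 6 listed, of which 1 was higher (16.7%), 0 were lower and 5 were not called. Their median log2 fold was 0.14. NES (chr1:156638556-156647189), the filament nestin of neural progenitors, had 1155 pairs in the 813 library and 300 in the NT library, or 47.2 and 12.9 CPM. Its log2 fold was 1.87 (1.68 to 2.06), a level 3.65-fold higher in the 813 library. None of the 5 filaments of differentiated neurons was called, although the interval of PRPH overlapped that of NES. NEFL, the light neurofilament chain, was at 2.98 and 5.26 CPM with a log2 fold of -0.81 (-1.26 to -0.39). NEFM, the medium chain and its neighbour on chromosome 8, was at 4.29 and 3.23 CPM with a log2 fold of 0.41 (-0.03 to 0.86). The intervals of these neighbours did not overlap. NEFH, the heavy chain, was at 8.46 and 12.1 CPM with a log2 fold of -0.52 (-0.78 to -0.25), and INA, the internexin that copolymerizes with it, was at 10.2 and 11.1 CPM with a log2 fold of -0.13 (-0.38 to 0.13). PRPH, the peripherin of peripheral neurons, was at 2.08 and 1.08 CPM with a log2 fold of 0.94 (0.24 to 1.71). With the trend removed, PRPH was called higher at 1.40 and NEFL lower at -1.20.

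Growth cone and microtubule proteins held both the highest log2 fold of the measured genes and 3 of the lower ones. Of 11 listed, 7 were measured, 1 was higher (14.3%) and 3 were lower (42.9%), with a median log2 fold of -0.55. GAP43 (chr3:115342151-115440334), a phosphoprotein of the growth cone membrane, had 187 pairs in the 813 library and 33 in the NT library (7.64 and 1.42 CPM). Its log2 fold was 2.41 (1.89 to 3.01), a level 5.31-fold higher. MAPT (chr17:43971748-44105699), the microtubule-binding protein tau, had 401 and 1312 pairs (16.4 and 56.5 CPM). Its log2 fold was -1.78 (-1.95 to -1.62), a level 3.44-fold higher in the NT library. MAP4, the widely expressed relative of tau, had a log2 fold of -0.49 (-0.53 to -0.46).

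The collapsin response mediator proteins, which bind tubulin and carry semaphorin signals to the growth cone, were split. DPYSL3 (chr5:146770371-146889619) had 445 pairs in the 813 library and 1291 in the NT library (18.2 and 55.6 CPM), a log2 fold of -1.61 (-1.77 to -1.46). DPYSL4 (chr10:134000414-134019280) had 117 against 361 pairs (4.78 and 15.6 CPM), giving a log2 fold of -1.70 (-2.01 to -1.40). DPYSL2 was more abundant, with 9852 against 7156 pairs (403 and 308 CPM), and had a log2 fold of 0.39 (0.34 to 0.43). The paralogs outside the 49 genes lay near DPYSL2, with CRMP1 at 0.19 (0.05 to 0.34) and DPYSL5 at -0.26 (-0.30 to -0.21), so DPYSL3 and DPYSL4 were the only called members of this family of 5.

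STMN3, a stathmin that destabilizes microtubules, was at 297 and 435 CPM with a log2 fold of -0.55 (-0.59 to -0.50), close to its ubiquitous paralog STMN1 at -0.57 (-0.60 to -0.55). MAP1B, a microtubule protein of growing axons, was at 17.6 and 11.0 CPM with a log2 fold of 0.67 (0.45 to 0.90). Neither was called.

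The neuronal RNA-binding proteins were represented by ELAVL3 alone, since ELAVL2 and ELAVL4 were not measured. ELAVL3 (chr19:11562143-11591803), a protein that stabilizes transcripts of differentiating neurons, had 145 pairs in the 813 library and 445 in the NT library (5.93 and 19.2 CPM). Its log2 fold was -1.69 (-1.97 to -1.42), while its ubiquitous paralog ELAVL1 had a log2 fold of -0.38 (-0.43 to -0.32). CUX2 (chr12:111471828-111788358), a homeodomain factor of upper-layer cortical neurons, had 85 and 499 pairs (3.47 and 21.5 CPM). Its log2 fold of -2.62 (-2.98 to -2.29) was the lowest of all measured genes among the 49, a level 6.16-fold higher in the NT library, and its paralog CUX1 was at -0.45 (-0.54 to -0.36). UCHL1 was at 811 and 1090 CPM with a log2 fold of -0.43 (-0.45 to -0.40).

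Adhesion molecules had 5 of 6 listed genes measured, of which 2 were higher (40.0%) and 0 were lower. Their median log2 fold was 0.83. NCAM1 (chr11:112831969-113149158), the homophilic adhesion molecule also known as CD56, had 187 pairs in the 813 library and 42 in the NT library (7.64 and 1.81 CPM), and its log2 fold was 2.07 (1.59 to 2.60). NRXN2 (chr11:64373646-64490660), a presynaptic neurexin, had 311 against 80 pairs (12.7 and 3.45 CPM), giving a log2 fold of 1.88 (1.52 to 2.26). The paralog NCAM2 had 49 and 35 pairs, with a log2 fold of 0.40 (-0.25 to 1.08). The paralog NRXN3 had 4 pairs in the 813 library and 1 in the NT library, too few for a comparison with NRXN2.

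The neuroligins bind neurexins across the synapse, and the 2 measured ones among the 49 genes were not called. NLGN2, found mainly at inhibitory synapses, was at 129 and 139 CPM with a log2 fold of -0.11 (-0.18 to -0.04). NLGN3 had 25 against 44 pairs and a log2 fold of -0.88 (-1.66 to -0.15). L1CAM, an adhesion molecule of growing axons, was at 3.92 and 2.20 CPM with a log2 fold of 0.83 (0.33 to 1.36), and was not called.

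**Figure D3:**
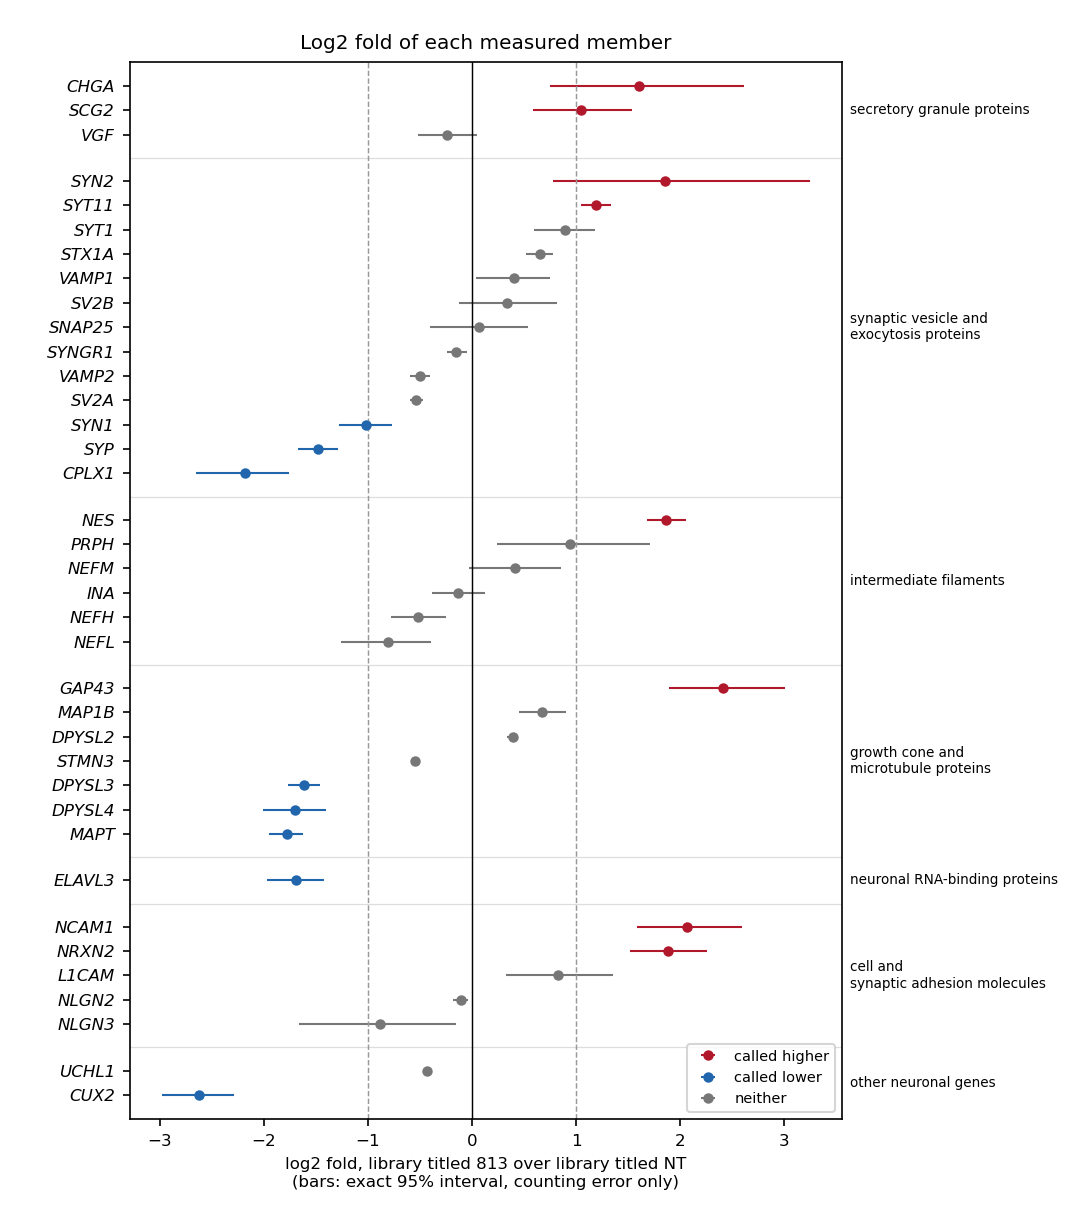
Log2 fold (813 library over NT library) of the 37 measured genes by role, with horizontal bars for the exact 95% interval, which covers counting error only, and dashed lines at a 2-fold difference. CUX2 (-2.62) and GAP43 (2.41) are the extremes, and the widest bars belong to the low counts of SYN2 and CHGA.

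The called genes differed in base composition. Median transcript GC content was 58.5% for the 8 lower genes and 49.6% for the 8 higher genes, beside 50.5% for all measured genes that had a value. All lower genes of the table had a median of 59.4% and all higher genes 45.3%, so the GC difference between higher and lower genes runs through the whole comparison. A smooth trend on GC content and length, fitted over 11022 genes, accounted for 16.4% of the variance in log2 fold. With that trend removed, 8 genes were again called in each direction, of which 6 higher and 7 lower genes were shared with the calls above. SCG2, SYT11 and SYN1 left and PRPH, STX1A and NEFL entered. Among the higher genes, NRXN2 (64.5% GC), CHGA (62.4%) and NES (59.3%) lay above the median GC of the lower genes. The other higher genes lay below it. With the trend removed, NRXN2, CHGA and NES had log2 folds of 2.09, 2.02 and 2.01, although CHGA could enter only as a higher gene. The part of base composition in the calls was not tested.

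Exon counts gave a view along each gene. Of 477 exon records of the 49 genes, 186 records in 33 genes had at least 50 reads in a gene with at least 200, and 0 of them differed at least 2-fold from the rest of their gene with separate intervals, where 0.420% of all 93507 records tested departed. All 99 records of the 8 lower genes with reads in both libraries were lower in the 813 library. Of the 67 such records of the 8 higher genes, 61 were higher. These reads are parts of the gene counts that gave the calls, so much of this agreement was fixed in advance. Some records, as in ELAVL3 and SYN1, also overlap and share reads. MAPT had 15 of 15 records lower (log2 folds from -2.70 to -1.28), CUX2 had 22 of 22 (-3.19 to -1.55) and NES had 4 of 4 higher (0.70 to 1.93).

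**Figure D4:**
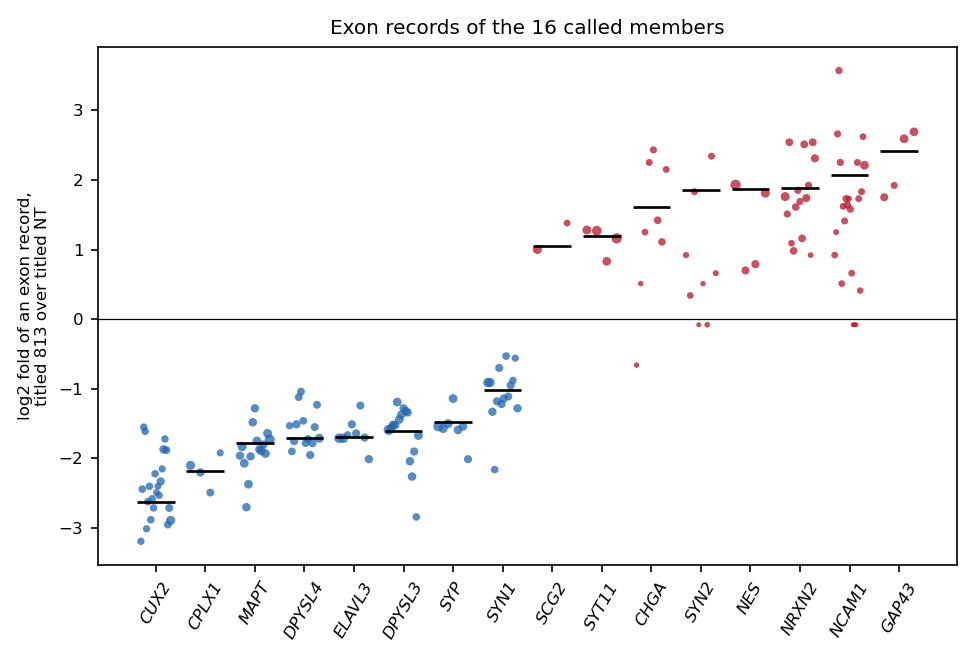
Log2 fold (813 library over NT library) of each exon record with reads in both libraries, 1 point per record (larger with more reads), for the 16 called genes, with a black line at the log2 fold of the whole gene. The 99 records of the lower genes all lie below 0, and the 6 records of higher genes below 0 belong to CHGA, NCAM1 and SYN2, 5 of them at -0.08, the value of equal reads in both libraries.

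The exon reads of NRXN2 began within the gene. Neurexins are made as a long alpha form and as a short beta form that starts at an internal promoter, and the exon records were matched by length to the alpha and beta transcripts of GENCODE 29. The stretches compared here, and those of NCAM1 and MAPT below, were chosen after the exon values were seen, and counts were divided by 2 for the intervals because 1 exon can hold both mates. The 10 records 5' of alpha exon 10, together 2284 bases, had 0 reads in the 813 library and 1 in the NT library. A count of 0 there allows up to 1.31 reads per kb. The 15 records from alpha exon 10 to the 3' end, together 5140 bases, had 671 and 169 reads, or 131 and 32.9 reads per kb, with a log2 fold of 1.91 (1.57 to 2.28). Alpha exon 10 itself, 387 bases long, had 67 and 12 reads. The first exon of the beta form, 777 bases long, had 18 and 4 reads, or 23.2 and 5.15 reads per kb, less than the records on either side of it. Reads in alpha exons 10 to 17, which lie 5' of the beta start, numbered 295 and 65, or 184 and 40.5 reads per kb. In both libraries the reads thus lay from alpha exon 10 onward, and neither the first 10 records nor the beta first exon held many of them.

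**Figure D5:**
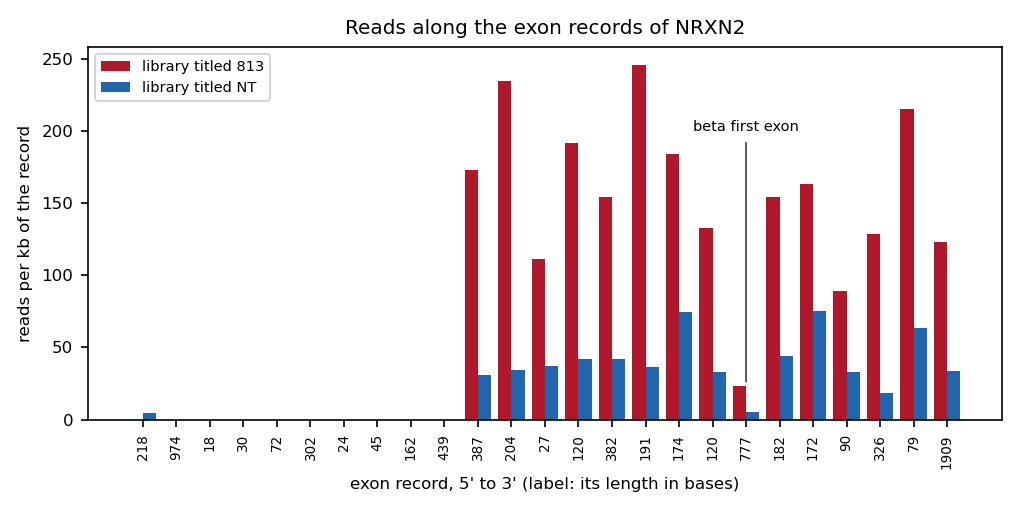
Reads per kb of each NRXN2 exon record from 5' to 3' in the 813 library (red) and the NT library (blue), with the record's length in bases as its label. The 10 leftmost records hold 0 and 1 reads, and from the 387-base record on the red bars stand above the blue ones.

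NCAM1 is made with a transmembrane tail or with a glycolipid (GPI) anchor, which use different 3' exons. The last exon of the GPI type, 2352 bases long, had 6 and 4 reads, or 2.55 and 1.70 reads per kb. The 3 exons of the transmembrane type had 196 and 38 reads, or 56.1 and 10.9 reads per kb, with a log2 fold of 2.26 (1.57 to 3.08). The higher level of NCAM1 in the 813 library was thus measured in its transmembrane type, and 6 and 4 reads allow no comparison of the other.

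Tau isoforms differ in a few alternative exons, which were read against the 7 constitutive internal exons of MAPT in the same library. Exon 10, which adds a microtubule-binding repeat, had 19 and 65 reads, a density of 45.3% of the constitutive exons in both libraries. Exon 4A, which makes the big tau of peripheral neurons, had 24 and 92 reads, a density of 7.06% in the 813 library and 7.92% in the NT library. Exons 2 and 3 of the amino-terminal inserts had 57 and 272 reads, at 72.6% and 101%. Exon 6 had 36 and 84 reads, at 40.3% and 27.5%, the opposite order to exons 2 and 3. How exon length bears on these densities was not tested, and they are compared only across the libraries. The intervals of the log2 folds of exons 2 and 3 (-2.97 to -1.74) and of exon 6 (-2.18 to -0.47) both overlapped that of the constitutive exons (-2.09 to -1.62).

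Other genes of the same pathways were counted from lists of relatives. Of 81 other synaptic vesicle and exocytosis genes, 52 were measured, 3 were higher and 5 were lower, 5.77% and 9.62% beside 8.13% and 3.48% of all measured genes, with a median log2 fold of -0.08. DOC2A, a calcium-binding protein of spontaneous release, had 53 against 301 pairs and a log2 fold of -2.57 (-3.03 to -2.16), and RPH3A, an effector of RAB3, had 88 and 464 pairs and one of -2.47 (-2.82 to -2.14). SYNPR, a relative of SYP, was lower at -1.49 (-1.78 to -1.21), as was SYTL1 at -1.46 (-1.82 to -1.12). The small GTPase RAB3B was higher, with 4394 against 1034 pairs and a log2 fold of 2.01 (1.91 to 2.11). UNC13A, a vesicle priming factor, was higher at 1.61 (0.75 to 2.62) with 1 CPM reached only in the 813 library, and VAMP5 at 1.15 (0.72 to 1.61).

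Of 28 other granule and neuropeptide genes, 12 were measured, 1 was higher (8.33%) and 2 were lower (16.7%), with a median of 0.56. CADPS2, which primes dense-core granules, had 845 against 219 pairs and a log2 fold of 1.87 (1.66 to 2.09). PCSK1N, an inhibitor of the prohormone convertase, was lower at -1.18 (-1.36 to -0.99), and the neuropeptide gene GAL, with 14 and 42 pairs, was lower at -1.63 (-2.65 to -0.76) with 1 CPM reached only in the NT library. Among 53 other adhesion and postsynaptic genes, 28 were measured, 7 were higher and 2 were lower, with a median of 0.45. Both shares of the 28 lay above those of all measured genes, 8.13% higher and 3.48% lower. Of the higher genes, NPTX2 reached 1 CPM only in the 813 library, so the filter set its direction. The scaffolds were divided, with DLG2 higher at 1.84 (1.64 to 2.04) and SHANK3 and SHANK1 lower at -2.10 (-2.40 to -1.83) and -1.97 (-2.09 to -1.86). NLGN4X, a neuroligin, was higher at 1.80 (1.59 to 2.03), the glutamate receptor subunit gene GRIN2D at 1.48 (1.32 to 1.64) and NRCAM, of the L1 family, at 1.34 (1.07 to 1.63).

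Of 36 other cytoskeleton genes, 29 were measured, 3 were higher (10.3%) and 1 was lower (3.45%), with a median of 0.15. SYNM, a filament protein that assembles with other intermediate filaments, had 566 against 76 pairs and a log2 fold of 2.81 (2.47 to 3.19). RTN1 was higher at 1.43 (1.22 to 1.65) and MARCKS at 1.04 (0.91 to 1.18), while the tubulin TUBB4A was lower at -1.74 (-1.82 to -1.65), with 1490 pairs in the 813 library and 4719 in the NT library. Of 21 other RNA-binding genes, 14 were measured, 1 was higher (7.14%) and 2 were lower (14.3%), with a median of 0.17. RBFOX3, the antigen NeuN of mature neurons, had 8 against 48 pairs and a log2 fold of -2.59 (-3.95 to -1.57), also with 1 CPM reached only in the NT library. CELF5, a splicing regulator of the brain, was lower at -1.47 (-1.80 to -1.16), and FMR1 was higher at 1.27 (0.88 to 1.69).

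Of 40 neuronal transcription factors and genes of the REST complex, 19 were measured, 3 were higher (15.8%) and 0 were lower. Their median was 0.24. SOX4, a factor of immature neurons, was higher at 1.68 with 779 and 230 pairs, EBF3 at 1.42 (1.27 to 1.58) and POU4F1, a factor of sensory neurons, at 1.12 (0.83 to 1.42). REST had 47 pairs in the 813 library and 33 in the NT library, or 1.92 and 1.42 CPM, with a log2 fold of 0.43 (-0.24 to 1.12) whose interval includes no difference. RCOR1, its corepressor, was at 121 and 74.6 CPM, with a log2 fold of 0.70 (0.61 to 0.78).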

How the data were processed

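Poly(A) RNA of A673 cells was sequenced, 1 library per group. The tools were CASAVA 1.9, TopHat2 2.0.6 and HTSeq with build hg19, per the submitters' processing notes. Which annotation, strand setting or filter was used is not stated there, so overlapping genes on opposite strands may share reads. For each gene and each exon the authors deposited a raw read count and an RPKM value, per the file headers. Of 23398 gene rows, 46 repeats were dropped. All deposited gene counts are even and were divided by 2 to give pairs.

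Pairs were scaled by TMM (edgeR 4.0.16, R 4.3.3; factors 1.048 and 0.954), and log2 folds used a prior of 0.5 pairs. The 95% Clopper-Pearson intervals (scipy 1.17.1) cover counting error only; PCR copies were not told apart. No p-value was computed. The calling rule was run on simulated counts with counting noise only and planted differences larger than the 2-fold rule. That run holds no spread between cultures. GC content and transcripts came from GENCODE 29, with the trend fitted by mgcv 1.9.3. None of the 49 genes had a near copy (97% identity over 50% of the transcript, 0 of 49).

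The 49 genes, their 7 role groups and 9 related lists were chosen with earlier results of these data known. By rule, all measured genes among the 49 are given, with RUNX3, REST, RCOR1, close paralogs of called genes, and up to 4 called genes per direction of each list. Some genes that this rule names are not reported here. Alternatives were other scalings (DESeq2 1.42.0, plain totals, totals without the 20 most abundant genes, the authors' RPKM), filters and priors, undivided counts, the trend removed, and groups from the shRNA characteristic.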

Additional observations from a re-analysis of the deposited data

How the results depend on the processing

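No paired analysis was possible because each group has 1 library, and for the same reason no replicate could be left out. Across 9 alternatives the number of higher genes lay between 6 and 9 and that of lower genes between 7 and 8, and 11 of the 16 calls held under every one (13 apart from the 5 CPM filter, under which CHGA and SYN2 were not measured, leaving 29 genes). No log2 fold of a called gene changed sign. Removing the filter or leaving the counts undivided could not end a call, so those alternatives do not check the calls. The calls that ended were SCG2 (DESeq2 size factors, 1.04; trend removed, 0.72), SYT11 (trend removed, 0.80) and SYN1 (plain totals -0.88, totals without the 20 most abundant genes -0.89, authors' RPKM -0.89, trend removed -0.70). Those 3 scalings moved the median of all genes by 0.14, 0.13 and 0.13. Over all genes, removing the trend left 655 higher and 273 lower calls in place of 996 and 427. With groups from the shRNA characteristic the median log2 fold of the 37 measured genes is 0.11, and by construction every gene called higher becomes lower and the reverse. No exon departed at 20 reads an exon and 100 a gene either (0 of 255). Low counts limit CHGA, SYN2 and the 12 unmeasured genes most, and 1 library per group leaves the spread between cultures unknown.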

Other observations

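The first exons of DPYSL2 and DPYSL3 were looked at after their values were seen. DPYSL2 has 3 exon records at alternative 5' ends. Its 487-base record had 133 reads in the 813 library and 160 in the NT library, a log2 fold of -0.34 (-0.83 to 0.15). Its 470-base record had 1063 and 603 reads, a log2 fold of 0.74 (0.54 to 0.95), so the intervals of these records did not overlap. The 129-base record had 245 and 192 reads, a log2 fold of 0.27 (-0.12 to 0.68). DPYSL3 has 2 such records, a 579-base one with 64 and 195 reads (-1.67, -2.31 to -1.09) and a 149-base one with 4 and 33 reads (-2.84, -6.28 to -1.04), both lower in the 813 library with overlapping intervals.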
